A study of Mus musculus with 35 samples.

Results

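Gpr65, Gpr4 and Gpr132 are listed members of the proton-sensing family of G protein-coupled receptors, and their transcripts were followed here in 35 libraries of mouse cytotoxic T lymphocytes (CTLs). The 3 receptors were taken by name from the 48709 genes in each count table, and the choice of this family was made with earlier results of these data known. Gpr65 and Gpr132 were among the 13819 genes with enough reads to be tested, and Gpr4 was not. The cells were OT-I CTLs, that is splenic CD8+ T cells that carry a transgenic receptor for an ovalbumin peptide, primed in vitro through CD3 and CD28 and then grown in IL-2. One group was taken at 0 h, the start of the experiment. The other 6 groups then spent 24 h in medium of pH 7.4, pH 7 or pH 6.6, each either with 200 IU/mL of murine IL-2 or without it. Every group had 5 libraries, numbered 1 to 5 for biological replicates that recur in every culture. The medium was acidified with hydrochloric acid and dead cells were removed on Ficoll before RNA was extracted, so the values describe the surviving cells of an expanded culture and not T cells in a tissue. In such bulk RNA, fewer cells of one kind and less RNA per cell cannot be told apart.

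Proton-sensing receptors carry extracellular histidines and acidic residues that change their protonation as the medium becomes acid, and this shifts the receptor towards its active state. Gpr65, found mainly on lymphocytes and myeloid cells, couples to the stimulatory G protein Gs, which drives adenylyl cyclase to make cyclic AMP (cAMP). In T cells cAMP acts through protein kinase A (PKA) and is broken down by phosphodiesterases. Gpr4 also couples to Gs and is best known from endothelial cells. Gpr132 is induced by stress and by block of the cell cycle in lymphocytes, couples to G proteins of the G12/13 class, and is also reported as a receptor for oxidised or N-acyl lipids, with a weaker claim to proton sensing than the other two.

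Gpr65 (ENSMUSG00000021886) and Gpr132 (ENSMUSG00000021298) both lie on mouse chromosome 12. On build GRCm38, Gpr65 is at chr12:98268635-98276644 on the plus strand, with 2 exons and its whole coding sequence in 1 of them. Gpr132 is at chr12:112850873-112868228 on the minus strand, with 2 annotated transcripts. Gpr4 (ENSMUSG00000044317) is at chr7:19212538-19224174 on the plus strand, again with the coding sequence in 1 exon. Their merged exons span 2069, 2715 and 2882 bases, and these lengths were used wherever levels of different receptors were compared. No 50-base window of their transcripts occurred in a transcript of another annotated gene. Of the exon bases of Gpr65, 24.7% lie opposite Gm47566, a gene on the other strand. Gm47566 was not among the genes counted, so its own level is not known. The strand setting of the counting is not given in the sources used here, so reads from the strands cannot be told apart over that stretch.

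The stretches just before the transcription starts are shown because Gpr65 and Gpr132 moved in opposite directions, and they let the base composition of the receptors' promoters be compared. They are RefSeq sequences on GRCm38.p6, 250 bases ending at the base before the start, written 5′ to 3′ along the gene. Capitals mark matches to 7 motifs searched on both strands: the cAMP response element TGACGTCA, its core TGACG, which the whole element contains, the STAT motif TTCNNNGAA, the E-box CACGTG, the FOXO motif GTAAACA, the AP-1 motif TGANTCA and the C/EBP-ATF motif TGATGNAA. Gpr65 is shown from chr12:98268385-98268634, Gpr132 from chr12:112860917-112861166 on the minus strand, and Gpr4 from chr7:19212288-19212537.
Gpr65: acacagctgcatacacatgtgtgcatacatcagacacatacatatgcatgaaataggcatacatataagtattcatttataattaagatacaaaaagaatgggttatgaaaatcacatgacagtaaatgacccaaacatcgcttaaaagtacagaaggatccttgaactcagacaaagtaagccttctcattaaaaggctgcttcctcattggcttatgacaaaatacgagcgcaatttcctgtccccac
Gpr132: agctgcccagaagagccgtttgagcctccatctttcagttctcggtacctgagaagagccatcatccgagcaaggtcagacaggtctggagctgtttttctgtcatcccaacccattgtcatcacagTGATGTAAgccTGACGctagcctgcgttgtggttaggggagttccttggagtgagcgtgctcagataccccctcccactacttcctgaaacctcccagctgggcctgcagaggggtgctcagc
Gpr4: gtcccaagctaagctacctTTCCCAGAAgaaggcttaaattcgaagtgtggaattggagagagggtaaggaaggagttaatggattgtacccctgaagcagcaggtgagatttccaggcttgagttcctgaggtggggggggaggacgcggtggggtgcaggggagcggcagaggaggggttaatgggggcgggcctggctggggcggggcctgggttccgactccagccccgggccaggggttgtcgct

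The Gpr65 stretch was AT-rich, with 36.8% G and C against a median of 52.4% over 32851 promoters. The stretches of Gpr132 and Gpr4 held 55.6% and 61.2%. No motif searched was found in the Gpr65 window. The Gpr132 window held 1 core, 112 bases before the start, and 1 C/EBP-ATF match, 123 bases before it. The Gpr4 window held 1 STAT match 231 bases before the start. The core was in 17.8% of all promoter windows, the C/EBP-ATF letters in 3.45% and the STAT letters in 7.02%, while the whole element was in 1.55%, the E-box in 6.02%, the FOXO letters in 3.17% and the AP-1 letters in 6.75%. These matches describe letters in a window and not sites known to be bound. The RefSeq start of Gpr132 lies within the gene's annotated span and not at its outer end, so a promoter further upstream is not shown.

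Reads assigned to genes numbered 16721319 to 34033340 per library, with a median of 24730020. All 9 CD8+ T cell markers passed the filter. Levels are given in CPM, counts per 1e6 reads assigned to the tested genes, with library sizes scaled by TMM. Cd8a, the alpha chain of CD8, was at 674 to 1596 CPM. Cd3e, a chain of the T cell receptor complex, was at 374 to 631 CPM. The effector genes of that list ranged more widely, with Gzmb (granzyme B) at 36.7 to 9010 CPM, Prf1 (perforin) at 11.1 to 686 CPM and Ifng (interferon gamma) at 0.421 to 41.4 CPM. Of 9 macrophage and monocyte markers 3 passed the filter, C1qa was at 0 in all libraries, and Lyz2 and Csf1r did not exceed 0.286 and 0.196 CPM. Of 6 endothelial markers 2 passed, with Emcn and Cldn5 at 0 in all libraries, and the summed level of the list was almost wholly Pecam1. Of 6 B cell markers 1 passed, of 4 CD4+ T cell markers 3 and of 4 NK cell markers 3. In the CD4+ T cell list Cd4 was at no more than 2.48 CPM and Foxp3 at no more than 5.50 CPM, but Zbtb7b was at 15.9 to 60.3 CPM. In the NK cell list Ncr1 was at no more than 0.0694 CPM, but Klrb1c was at 8.27 to 94.9 CPM. No red cell marker passed.

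Gpr132 was the most abundant of the receptors per length and Gpr4 was close to undetected. Averaged over the 35 libraries, Gpr132 stood at 83.8 CPM per kb of exon, rank 456 among all genes counted. Gpr65 stood at 19.9 CPM per kb, rank 2807. Gpr4 stood at 0.0253 CPM per kb, rank 17446. The order Gpr132, Gpr65, Gpr4 held for the group means per kb in 6 of the 7 groups. The exception was pH 7.4 with IL-2, where Gpr65 was at 33.3 ± 3.82 and Gpr132 at 27.7 ± 1.45 CPM per kb (SD, n = 5).

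Gpr65, the lymphocyte receptor coupled to Gs, had its highest levels in neutral medium with IL-2 and its lowest in acid medium without IL-2. At 0 h the libraries of replicates 1 to 5 gave 51.5, 52.4, 57.1, 57.7 and 56.6 CPM. After 24 h at pH 7.4 with IL-2 they gave 81.4, 69.7, 69.3, 62.3 and 61.9 CPM, all above the 0 h libraries. At pH 7 with IL-2 they gave 77.7, 59.8, 57.6, 60.1 and 57.6 CPM. These overlapped the libraries at pH 7.4, and replicate 1 stood apart from the other 4. At pH 6.6 with IL-2 the level was 36.5, 25.5, 31.7, 29.1 and 30.1 CPM, below every library of the 3 groups just given. Without IL-2 the libraries at pH 7.4 gave 28.6, 28.3, 27.7, 34.4 and 25.9 CPM, all within the span of those at pH 6.6 with IL-2. At pH 7 without IL-2 they gave 27.2, 22.3, 22.5, 24.5 and 17.2 CPM. At pH 6.6 without IL-2 they gave 23.4, 20.1, 18.4, 18.7 and 19.7 CPM, which lay wholly below the libraries at pH 7.4 without IL-2 and overlapped those at pH 7.

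Gpr132, the receptor linked to G12/13 proteins, was arranged the other way round. At 0 h its libraries gave 127, 108, 113, 97.5 and 106 CPM for replicates 1 to 5. At pH 7.4 with IL-2 they gave 72.4, 70.4, 80.3, 75.8 and 77.4 CPM, and all were lower than at 0 h. At pH 7 with IL-2 they gave 86.9, 84.4, 102, 83.1 and 74.1 CPM, overlapping both of these groups. At pH 6.6 with IL-2 the level was 241, 337, 352, 276 and 258 CPM. No library of that group came near the other IL-2 groups, whose highest library was at 102 CPM. Without IL-2 the libraries at pH 7.4 gave 253, 324, 334, 258 and 286 CPM. At pH 7 without IL-2 they gave 287, 337, 355, 315 and 329 CPM. At pH 6.6 without IL-2 they gave 370, 414, 451, 409 and 423 CPM, above every other library in the series.

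**Figure D1:**
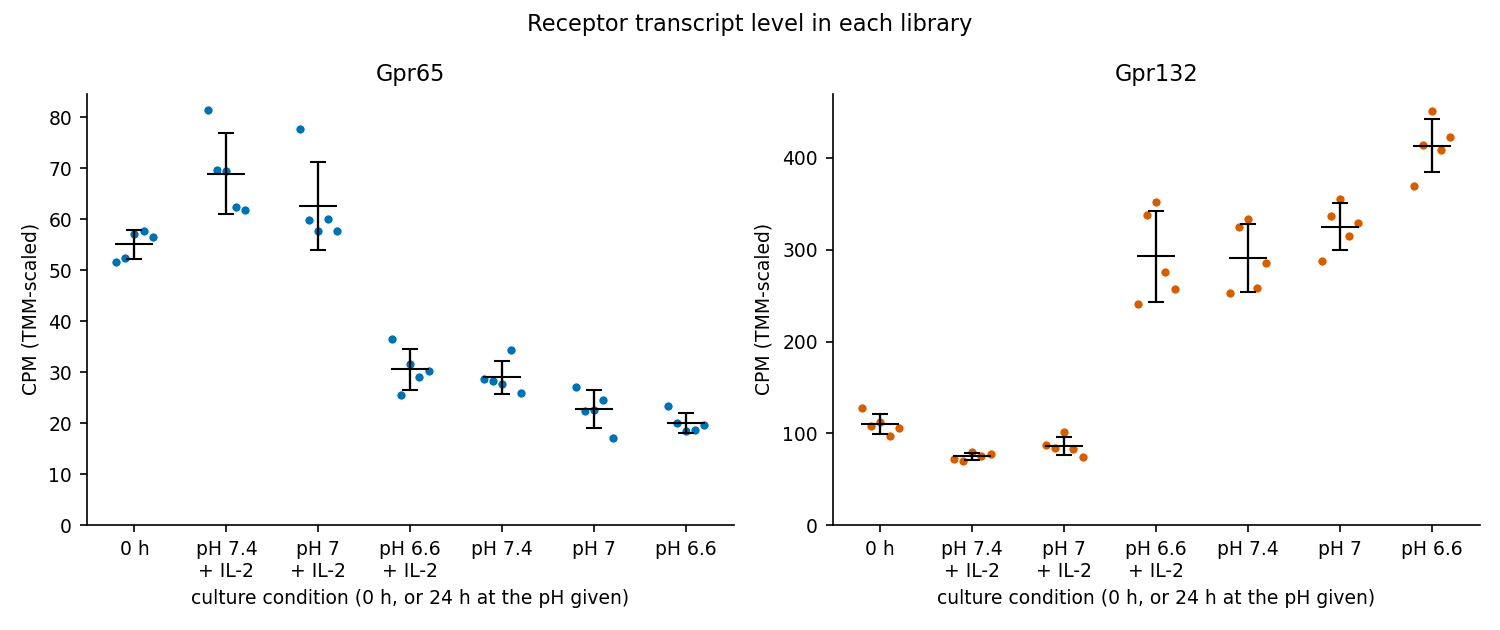
Level of Gpr65 (left) and Gpr132 (right) in CPM scaled by TMM, on linear axes that start at 0, in the 7 culture conditions. Points are single libraries in the order of replicates 1 to 5, the long dash is the group mean and the bars are 1 SD (n = 5). For Gpr65 the 3 groups on the left sit above the 4 on the right without overlap, from 51.5 CPM upwards against 36.5 CPM downwards. For Gpr132 the same groups sit below, at up to 127 CPM against 241 CPM or more. How many of all genes divide the groups in this way was not counted.

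In the order of group means Gpr65 ran from pH 7.4 with IL-2 (68.9 ± 7.90 CPM, SD, n = 5) through pH 7 with IL-2 (62.6 ± 8.55), 0 h (55.1 ± 2.87), pH 6.6 with IL-2 (30.6 ± 3.99), pH 7.4 (28.98 ± 3.20) and pH 7 (22.7 ± 3.68) to pH 6.6 (20.1 ± 1.97). Of the neighbours in that order, 0 h and pH 6.6 with IL-2 had ranges that did not overlap, and the other 5 pairs of neighbours overlapped. Gpr132 ran from pH 6.6 (413 ± 29.3 CPM, SD, n = 5) through pH 7 (325 ± 25.6), pH 6.6 with IL-2 (293 ± 49.2), pH 7.4 (291 ± 37.2), 0 h (110 ± 10.98) and pH 7 with IL-2 (86.1 ± 10.0) to pH 7.4 with IL-2 (75.3 ± 3.93). Its ranges were separate between pH 6.6 and pH 7 and between pH 7.4 and 0 h. CTLs kept at pH 6.6 with IL-2 and those kept at pH 7.4 without it were neighbours for both receptors, with overlapping ranges. Their difference was not tested.

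Whether acid changed the receptors while IL-2 was present was asked first. At pH 6.6 against pH 7.4, both with IL-2, Gpr65 fell by 1.17 on the log2 scale (SE 0.09, adjusted p = 1.4e-13), 2.26-fold lower and lower in 5 of 5 replicate pairs. Gpr132 rose by 1.95 (SE 0.08, adjusted p = 1.26e-19), 3.86-fold higher and higher in 5 of 5 pairs. Both moved within a broad shift of the transcriptome: of all tested genes 76.3% passed the same threshold, 35.4% higher and 40.9% lower. Against that background, passing the threshold is no result about the receptors, and their values are given for the size and direction. The step from pH 7.4 to pH 7 with IL-2 was not past the threshold for either receptor. Gpr65 differed by -0.14 (SE 0.09, adjusted p = 0.268) and Gpr132 by 0.19 (SE 0.08, adjusted p = 0.104), in a comparison where 19% of genes passed. From pH 7 to pH 6.6 with IL-2 Gpr65 fell by 1.03 (SE 0.09, adjusted p = 4.55e-12) and Gpr132 rose by 1.76 (SE 0.08, adjusted p = 3.87e-18), where 72.4% passed. These comparisons share their IL-2 libraries, so they are not independent of one another.

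Without IL-2 the changes had the same directions and most were smaller. The exception was Gpr65 from pH 7.4 to pH 7, at -0.36 without IL-2 and -0.14 with it, a difference not past the threshold. From pH 7.4 to pH 6.6, Gpr65 fell by 0.53 (SE 0.09, adjusted p = 5.6e-06) and Gpr132 rose by 0.51 (SE 0.08, adjusted p = 1.61e-06), each in 5 of 5 pairs and with no overlap between the groups. Of all tested genes 67.0% passed there, 31.6% higher and 35.4% lower. The share of all genes without overlap between these groups was not counted. From pH 7.4 to pH 7, Gpr65 fell by 0.36 (SE 0.09, adjusted p = 0.0282) in 5 of 5 pairs, in a comparison that called 1.68% of genes. The ranges of that pair of groups overlapped. This call was lost in the fit without replicate numbers as a block (adjusted p = 0.189) and when replicate 2, 3, 4 or 5 was left out (adjusted p = 0.145 to 0.174). Gpr132 differed by 0.16 (SE 0.08, adjusted p = 0.623) over the same step. From pH 7 to pH 6.6, Gpr132 rose by 0.35 (SE 0.08, adjusted p = 0.000328), and Gpr65 differed by -0.18 (SE 0.09, adjusted p = 0.0876), lower in 4 of 5 pairs, with 66.6% of genes called. Left without replicate 5, that Gpr65 difference was -0.25 and passed (adjusted p = 0.0295).

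Withdrawal of IL-2 and acid moved the receptors the same way. At pH 7.4, cells with IL-2 held 2.37-fold more Gpr65 than cells without it, a log2 difference of 1.25 (SE 0.09, adjusted p = 2.1e-14). Gpr132 was 3.85-fold lower with IL-2, and fell by 1.94 (SE 0.08, adjusted p = 3.3e-20). In this comparison 80.4% of tested genes passed, 39.3% higher and 41.1% lower. At pH 7 Gpr65 rose by 1.46 with IL-2 (SE 0.09, adjusted p = 5.9e-16) and Gpr132 fell by 1.92 (SE 0.08, adjusted p = 7.48e-20), where 77.2% passed. At pH 6.6 Gpr65 rose by 0.61 (SE 0.09, adjusted p = 6.04e-06) and Gpr132 fell by 0.51 (SE 0.08, adjusted p = 1.58e-05). Only 23.7% of genes passed at pH 6.6, and both receptors were among them. For each receptor the groups did not overlap and 5 of 5 pairs went in 1 direction. How many of all genes were separated in this way was not counted, here or in the other comparisons.

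The difference between these responses was itself tested, as an interaction of pH and IL-2. The fall of Gpr65 from pH 7.4 to pH 6.6 was larger by 0.64 on the log2 scale with IL-2 than without it, an interaction of -0.64 (SE 0.13, adjusted p = 4.72e-05). The rise of Gpr132 was larger by 1.44 with IL-2 (SE 0.12, adjusted p = 1.06e-12). Both had the same sign in 5 of 5 replicates, and 67.0% of tested genes passed this test. The interaction of pH 7 and IL-2 was 0.21 for Gpr65 (SE 0.13, adjusted p = 0.369) and 0.03 for Gpr132 (SE 0.11, adjusted p = 0.936), and it was past the threshold for 4.79% of genes.

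Against the start of the experiment, neutral culture with IL-2 was the sole condition of the 4 compared that raised Gpr65 and lowered Gpr132. After 24 h at pH 7.4 with IL-2 Gpr65 was higher than at 0 h by 0.31 (SE 0.09, adjusted p = 0.00258), and Gpr132 fell by 0.55 (SE 0.08, adjusted p = 7e-07), with 59.9% of genes called. At pH 7.4 without IL-2 Gpr65 fell by 0.93 (adjusted p = 4.25e-11) and Gpr132 rose by 1.39 (adjusted p = 3.72e-16), with 75.2% called. At pH 6.6 with IL-2 Gpr65 fell by 0.86 (adjusted p = 3.92e-10) and Gpr132 rose by 1.40 (adjusted p = 1.05e-15), with 68.5% called. At pH 6.6 without IL-2 Gpr65 fell by 1.47 (adjusted p = 1.03e-15) and Gpr132 rose by 1.90 (adjusted p = 1.87e-19), with 75.1% called. All 4 share the 0 h libraries.

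**Figure D2:**
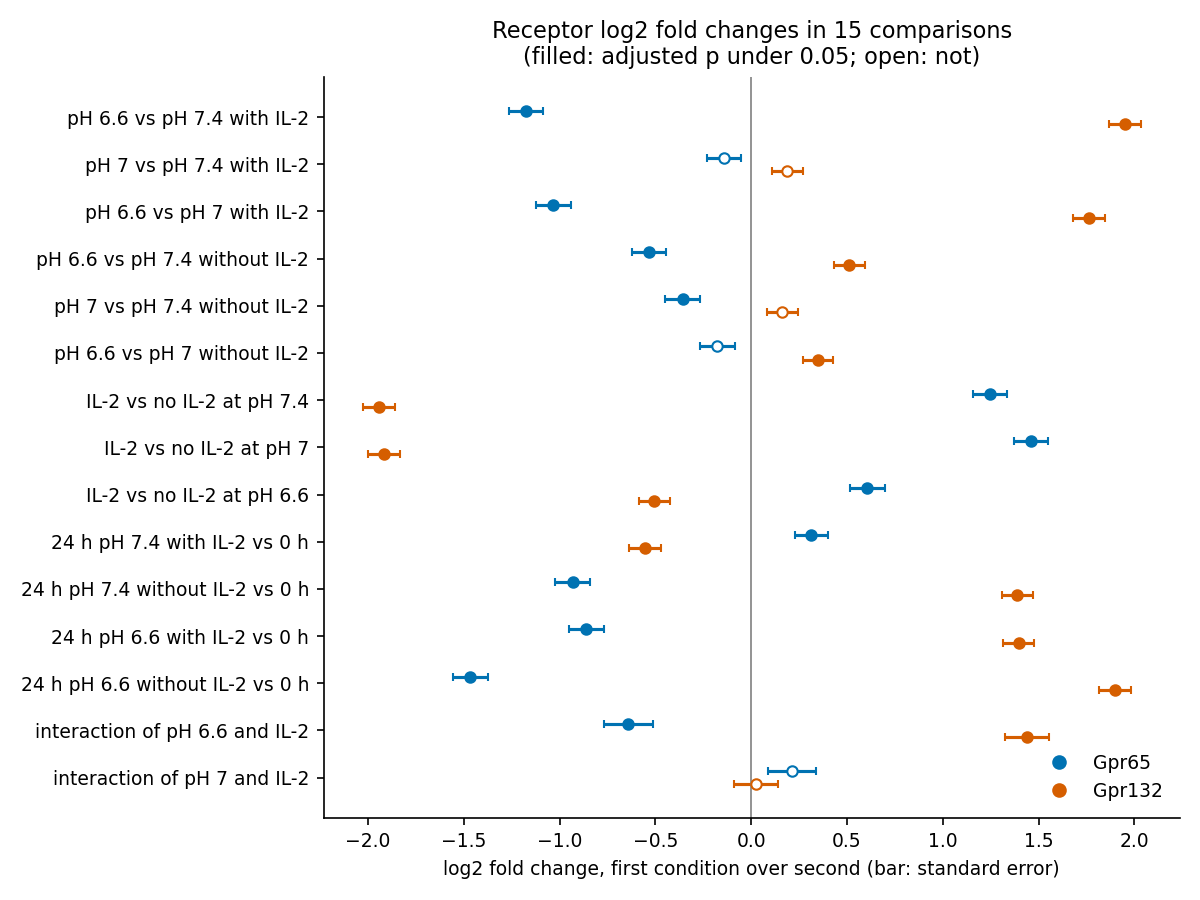
Log2 fold change of Gpr65 (blue) and Gpr132 (orange) in the 15 comparisons, first condition over second, with the standard error as bars and filled points where the adjusted p was under 0.05. In every comparison called for both, the receptors stand on opposite sides of 0, from -1.94 to 1.95 for Gpr132 and from -1.47 to 1.46 for Gpr65.

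Because Gpr65 and Gpr132 come from the same library, their ratio does not depend on how libraries were scaled. Per kb of exon, the Gpr132 level over the Gpr65 level at 0 h was 1.88, 1.57, 1.501, 1.29 and 1.43 in replicates 1 to 5. At pH 7.4 with IL-2 it was 0.678, 0.770, 0.882, 0.927 and 0.953, under 1 in every library. At pH 7 with IL-2 it lay between 0.852 and 1.35, with a median of 1.05. The other groups lay far above these. At pH 6.6 with IL-2 the ratio was 5.04, 10.1, 8.47, 7.22 and 6.51. At pH 7.4 without IL-2 it had a median of 8.42 (5.72 to 9.17), at pH 7 one of 11.5 (8.06 to 14.6) and at pH 6.6 one of 16.4 (12.1 to 18.6). No library of the 4 groups that were at pH 6.6 or had no IL-2 had a ratio as low as any of the other 3 groups.

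**Figure D3:**
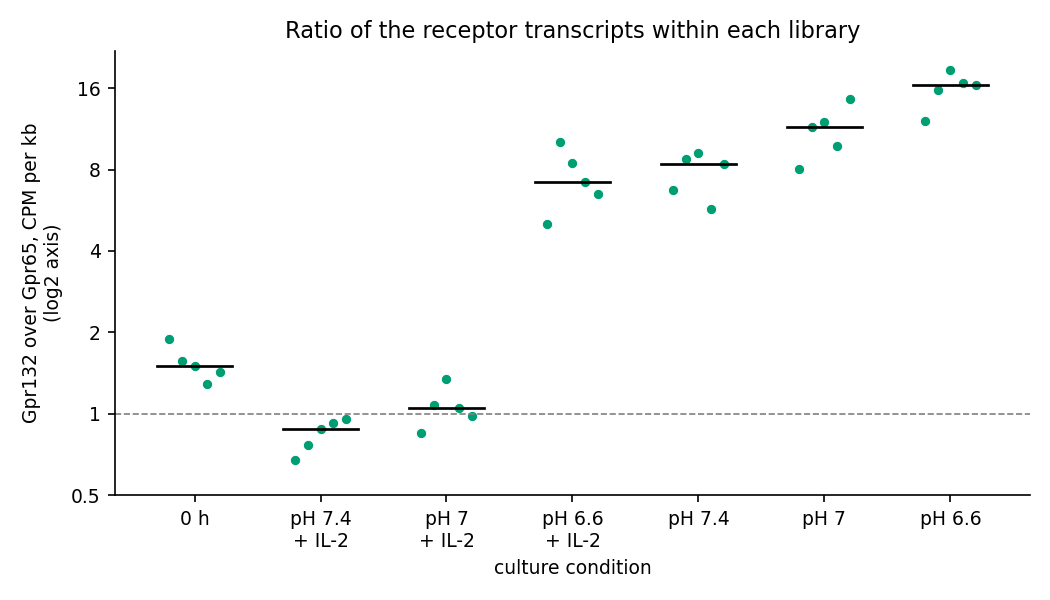
Ratio of Gpr132 to Gpr65, both in CPM per kb of exon, in each library, on a log2 axis. Points are libraries in the order of replicates 1 to 5, the bar is the group median and the dashed line is a ratio of 1. The medians run from 0.882 at pH 7.4 with IL-2 to 16.4 at pH 6.6 without IL-2.

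Gpr4 gave 62 counts in all 35 libraries together, between 0 and 7 in a library with a median of 2, and was at 0 in 11. Its highest level was 0.289 CPM. For the 11 libraries at 0, a limit of 3 counts allowed a level of up to 0.0881 to 0.135 CPM. These limits are on the raw total of reads assigned to genes, without TMM scaling, and cover counting error only. When every gene with at least 1 count in any library was kept, none of the 15 comparisons was past the threshold for Gpr4 in edgeR's test. The lowest unadjusted p was 0.0325 (adjusted p = 0.0724), for IL-2 at pH 7, and it was 1 of 15 under 0.05. A change of Gpr4 was not detectable at this depth.

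Other measures also differed between the groups, some along the same division as the receptors. The share of all counted reads that fell outside annotated genes had a median of 4.89% at 0 h, and, with IL-2, 4.33% at pH 7.4 and 5.13% at pH 7. It was 7.86% at pH 6.6 with IL-2, 9.43% at pH 7.4, 8.72% at pH 7 and 7.68% at pH 6.6. The high groups are those with little Gpr65 and much Gpr132. The summed level of the 9 CD8+ T cell markers, of which Gzmb had the widest range in CPM, divided the groups without overlap in the same way. It was 10559 to 14071 CPM at 0 h, 9710 to 12468 CPM at pH 7.4 with IL-2 and 8166 to 10380.2 CPM at pH 7 with IL-2. It was 3559 to 4948 CPM at pH 6.6 with IL-2, 3309 to 3995 CPM at pH 7.4, 3437 to 3805 CPM at pH 7 and 2959 to 3416 CPM at pH 6.6. The summed level of the 9 macrophage and monocyte markers was 8.92 to 11.96 CPM at 0 h. With IL-2 it was 5.48 to 11.4 CPM at pH 7.4, 7.27 to 15.1 CPM at pH 7 and 16.6 to 31.5 CPM at pH 6.6. Without IL-2 it was 10.6 to 19.7 CPM at pH 7.4, 13.3 to 21.7 CPM at pH 7 and 17.8 to 33.7 CPM at pH 6.6. Most of it was Cd68, a lysosomal protein that is not limited to those cells, at 4.95 to 31.96 CPM. The summed level of the 4 NK cell markers, mostly Klrb1c, moved the other way, from 53.7 to 58.7 CPM at pH 7.4 with IL-2 to 14.2 to 21.8 CPM at pH 6.6. It was highest at 0 h, at 96.8 to 104 CPM, and was 51.9 to 61.1 CPM at pH 7 with IL-2. In between lay pH 6.6 with IL-2 (23.7 to 40.6 CPM), pH 7.4 (29.5 to 48.4 CPM) and pH 7 (39.7 to 47.7 CPM). The summed level of the endothelial list followed another order. With IL-2 it was 27.3 to 36.2 CPM at pH 7.4, 36.8 to 49.2 CPM at pH 7 and 29.9 to 39.6 CPM at pH 6.6. Without IL-2 it was 84.2 to 119 CPM at pH 7.4, 80.99 to 111 CPM at pH 7 and 39.1 to 49.4 CPM at pH 6.6. The part of these measures in the receptor values was not tested.

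The other genes of the receptors' pathways were followed in 9 lists, described by counts of the tested members. These counts are to be read against the share of all tested genes that passed, which at pH 6.6 was 35.4% higher and 40.9% lower with IL-2, and 31.6% higher and 35.4% lower without it. The median log2 difference of all genes was -0.07 for pH 6.6 over pH 7.4 with IL-2, -0.03 without IL-2, and -0.04 for IL-2 at pH 7.4.

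Of the G protein alpha subunits, 3 of 10 tested members rose and 1 fell at pH 6.6 with IL-2 (median 0.19), and 6 rose and 2 fell without IL-2 (median 0.32). The 3 higher with IL-2 are no larger a share than that of all genes. Gnas, the alpha subunit of Gs through which Gpr65 and Gpr4 signal, differed by 0.03 with IL-2 (adjusted p = 0.684) and rose by 0.57 without it. Gna13, a G12/13 subunit, rose by 0.98 with IL-2 and by 0.76 without it. Gnal, the olfactory relative of Gnas, rose by 2.93 and 1.42 but from a low level of 1.36 CPM at pH 7.4 with IL-2. Gnai2, an inhibitory subunit, fell by 0.37 with IL-2 and rose by 0.32 without it, and Gnaq rose by 1.22 and 0.68. Of the beta and gamma subunits, 4 of 9 rose and 3 fell with IL-2 (median 0.01), near the 35.4% and 40.9% of all genes, and 5 rose and 2 fell without IL-2 (median 0.32). Gnb1 fell by 0.64 with IL-2 and rose by 0.32 without it, whereas Gng2 rose by 0.50 and fell by 0.59, and Gnb2 had differences of 0.01 and 0.26 that were not past the threshold. Gnb5 rose by 2 log2 units with IL-2 and by 1.43 without it.

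Receptor kinases and arrestins, which shut off activated receptors, had 7 of 11 members higher and 1 lower with IL-2 (median 0.47), against 35.4% and 40.9% of all genes, and 6 higher and 4 lower without it (median 0.23). Grk2 rose by 0.63 and 0.55. Arrb2, an arrestin, did not differ past the threshold with IL-2 (0.00, adjusted p = 0.998) and fell by 0.41 without it. Grk6 fell by 0.42 with IL-2, and differed by -0.08 without it (adjusted p = 0.466). Arrdc4, which is an arrestin-domain protein rather than an arrestin, is counted with this list and rose by 3.10 and 0.59. Grk4 rose by 0.85 with IL-2 but fell by 1.58 without it.

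Adenylyl cyclases, the enzymes that Gs activates, were 3 genes with enough reads out of 10, too few to set against the shares of all genes. With IL-2 1 rose and 1 fell, and without it 3 fell. Adcy7, the most abundant at 338 ± 16.1 CPM at pH 7.4 with IL-2 (SD, n = 5), rose by 0.60 with IL-2 and fell by 0.80 without it. Adcy3 fell by 1.53 and 1.38. Adcy6 differed by -0.02 with IL-2 (adjusted p = 0.909) and fell by 1.12 without it. The list medians were -0.02 and -1.12. Of the PKA subunits, anchors and other cAMP effectors, 6 of 13 rose and 4 fell with IL-2 (median 0.10), against 35.4% and 40.9% of all genes, and 4 rose and 6 fell without it (median -0.03). Prkar1a, a regulatory subunit of PKA, differed by 0.04 with IL-2 (adjusted p = 0.639) and rose by 0.21 without it. Prkacb, a catalytic subunit, rose by 0.61 and fell by 0.23. Rapgef4, a cAMP-activated exchange factor for Rap, rose by 2.78 and 0.41, and Akap13, an anchor of PKA, rose by 1.29 with IL-2 and differed by 0.21 without it (adjusted p = 0.151). Akap1, an anchor at mitochondria, fell by 1.97 and 0.54.

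The cAMP phosphodiesterases, which degrade the messenger, had 6 of 11 members higher and 3 lower at pH 6.6 with IL-2 (median 1.18), against 35.4% of all genes higher. Without IL-2 the counts turned, with 2 higher and 6 lower (median -0.54). Pde4d rose from 27.8 ± 1.995 to 186 ± 29.1 CPM with IL-2 (SD, n = 5), a log2 change of 2.73, and by 1.00 without it. Pde4b rose by 2.83 and 1.05. Pde3b rose by 1.49 with IL-2 and differed by -0.01 without it (adjusted p = 0.923), and Pde7a rose by 1.00 and fell by 0.54. With IL-2 at pH 7.4, against no IL-2, 9 of the 11 fell and 1 rose (median -1.81). Of all tested genes 41.1% fell and 39.3% rose in that comparison.

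Of the CREB factors and cAMP-responsive genes, 14 of 18 rose and 1 fell at pH 6.6 with IL-2 (median 0.77), and 12 rose and 2 fell without it (median 0.78), against 35.4% and 31.6% of all genes higher. Fosl2, an AP-1 factor, rose by 2.32 and 3.27. Nr4a1, an orphan nuclear receptor, rose from 1.34 ± 0.708 to 16.6 ± 5.44 CPM with IL-2 (SD, n = 5), by 3.63, and by 4.07 without it. Rgs1, which speeds the shut-off of G protein alpha subunits, rose by 1.24 and 0.68. Creb1 rose by 0.40 and fell by 0.38.

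Other receptors of T cells that couple to Gs or bind lipids included some of the largest changes among the named genes. Of 20 tested, 12 rose and 6 fell with IL-2 (median 0.53), against 35.4% and 40.9% of all genes, and 9 rose and 8 fell without it (median -0.02). Adora2a, the adenosine receptor coupled to Gs, rose from 4.41 ± 1.32 to 45.0 ± 13.8 CPM with IL-2 (SD, n = 5), a log2 change of 3.34, and by 1.38 without it. P2ry10, a receptor for lysophosphatidylserine, rose by 2.93 and 1.45. S1pr1, the sphingosine-1-phosphate receptor of lymphocyte egress, rose by 3.10 with IL-2 and differed by 0.08 without it (adjusted p = 0.525). The list also holds P2ry14, a receptor for UDP-sugars, and Gpr171, which belong to neither class and are counted with it. P2ry14 fell by 1.37 and 0.28, and Gpr171 differed by 0.05 (adjusted p = 0.681) and fell by 0.30. With IL-2 at pH 7.4, against no IL-2, 6 of the 20 rose and 11 fell (median -0.59), where 39.3% of all genes rose and 41.1% fell.

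Of the other acid-sensing and proton channels, 4 of 7 tested rose and 2 fell, both with IL-2 (median 0.56) and without it (median 0.33), out of 16 listed, against 35.4% and 40.9% of all genes with IL-2 and 31.6% and 35.4% without it. Trpm7, a channel with a kinase domain, rose by 0.56 and differed by 0.02 (adjusted p = 0.893). Kcnk5, a potassium channel gated by pH, fell by 0.83 and rose by 0.50. Hvcn1, the voltage-gated proton channel, differed by 0.05 with IL-2 (adjusted p = 0.668) and fell by 0.70 without it. P2rx4, an ATP-gated channel, rose by 0.72 and fell by 0.35.

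**Figure D4:**
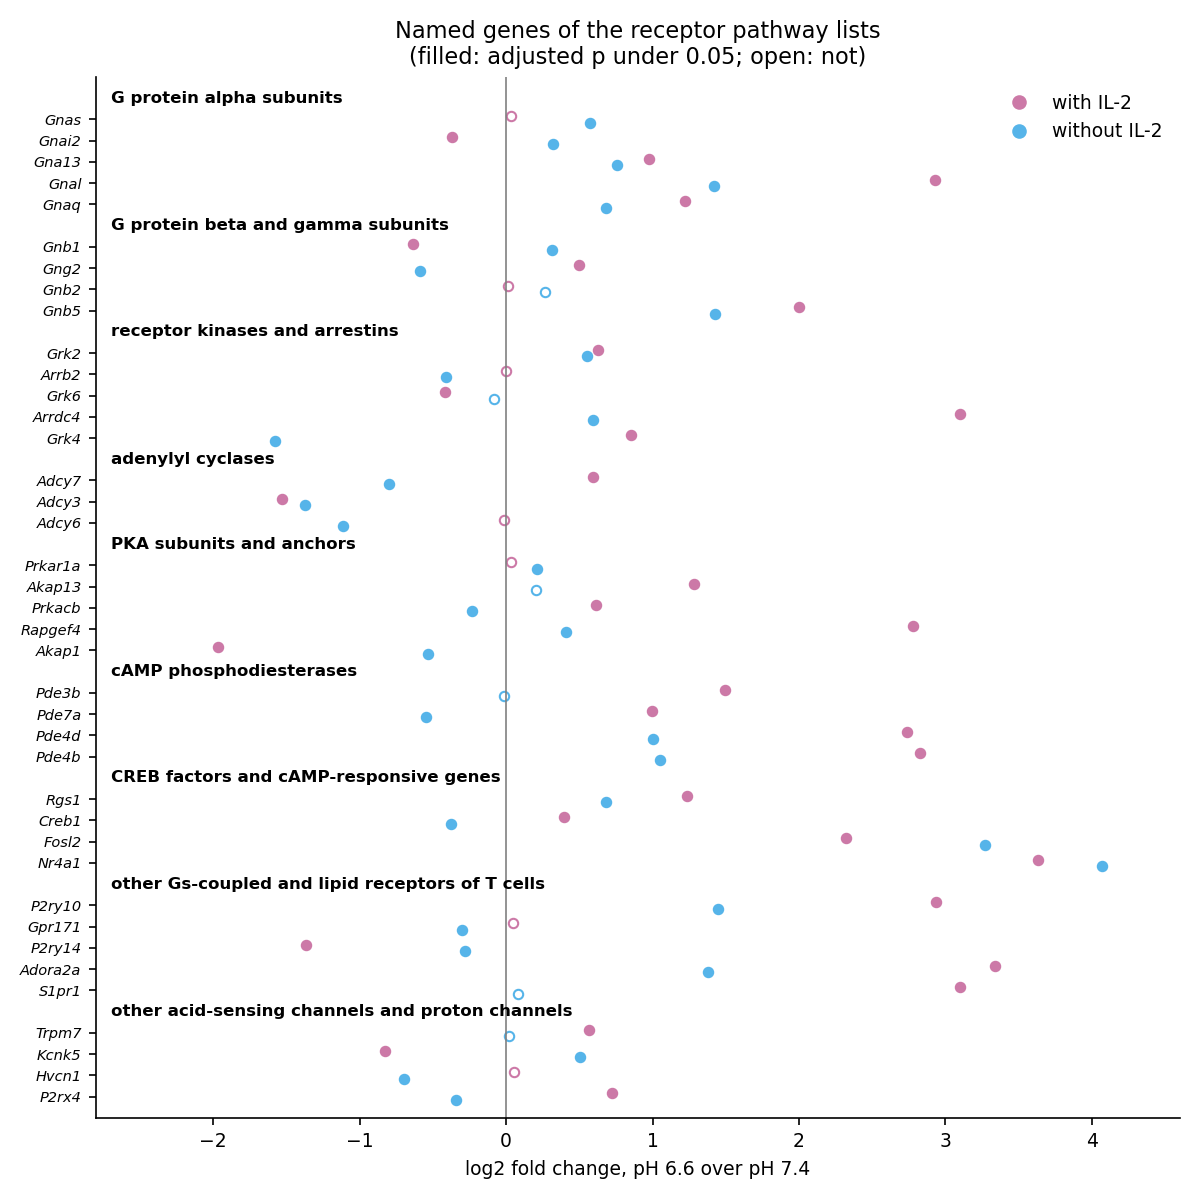
Log2 fold change at pH 6.6 against pH 7.4, with IL-2 (pink) and without it (light blue), for the named genes of the 9 pathway lists. Filled points had an adjusted p under 0.05. Nr4a1 (3.63 and 4.07) and Fosl2 (2.32 and 3.27) are far to the right in both, while Adcy7 (0.60 and -0.80), Gng2 (0.50 and -0.59) and Grk4 (0.85 and -1.58) stand on opposite sides of 0.

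With IL-2 at pH 7.4, against no IL-2, the remaining lists had these counts. Of the alpha subunits 2 rose and 6 fell (median -0.50), and of the beta and gamma subunits 2 rose and 3 fell (median -0.05). Of the kinases and arrestins 1 rose and 7 fell (median -0.36), and of the cyclases 1 rose and 2 fell (median -0.78). Of the PKA list 6 rose and 6 fell (median 0.11), and of the CREB list 9 rose and 8 fell (median 0.35). Of the channels 2 rose and 4 fell (median -0.54). The background was 39.3% higher and 41.1% lower.

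The pattern of each tested receptor over the 35 libraries was set beside that of 9007 genes whose log2 CPM averaged 3 or more, by Pearson's r of log2 CPM. The libraries fall into the same 2 blocks described above, which these r values share, so they are given as a description. Gpr65 was most like Eif1a (r = 0.98), Dkc1 (0.98), Prmt3 (0.98), Ube2e1 (0.97) and Set (0.97). Its most opposite gene of all 9007 was Gpr132 (r = -0.97), ahead of Grap (-0.97). Eif1a, a translation initiation factor, went from a mean of 171 CPM at pH 7.4 with IL-2 to 43.8 CPM at pH 6.6 with IL-2 and 42.0 CPM at pH 7.4. Gpr132 was most like Zer1, Faah, Ezh1, Sft2d2 and Thap3 (all r = 0.99), and most opposite to Erg28 and Gar1 (both r = -0.99). Zer1 went from 39.8 CPM at pH 7.4 with IL-2 to 168 CPM at pH 6.6 with IL-2 and 162 CPM at pH 7.4. Erg28 went from 81.3 to 19.1 and 18.6 CPM over the same groups.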

How the data were processed

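The deposited files held raw read counts per gene, 1 table per library; per the labels' processing notes the authors' tools were cutadapt 1.8, STAR 2.5.2b and HTSeq 0.6.1 on GRCm38, from stranded, poly(A)-selected libraries read in single ends. Rows for reads outside genes or not placed uniquely were left out of library sizes; the latter took 32.8 to 48.3% of counted reads. Symbols matched 48349 of 48709 gene IDs. Counts were tested in edgeR 4.0.16 (R 4.3.3): TMM scaling, filterByExpr with a minimum count of 10, and 1 quasi-likelihood fit over all 35 libraries with 1 term per group and a block for the replicate number. The adjusted p is Benjamini-Hochberg over 13819 genes, threshold 0.05, for each of 15 comparisons. CPM are scaled by TMM, and log2 CPM for likeness used a prior count of 2. The script was tested on simulated data. The replicate numbers come from the series' own design, in which 5 biological replicates entered every culture; deviations from group means correlated above 0.1 in 95 of 105 same-numbered pairs (median 0.27) against a median of -0.07 for 420 differently numbered pairs. No 2 libraries of a group agreed within sampling noise.

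Genes named were the members, in each list the 3 of highest mean log2 CPM and up to 2 of largest change past the threshold for pH 6.6 over pH 7.4 with IL-2 (log2 CPM averaging 1 or more), and the 5 most like and 2 most opposite genes of each tested receptor. Members and lists were chosen with earlier results of these data known. Marker genes were named to describe the lists, after their values were seen. Alternatives were RLE scaling, DESeq2 1.42.0, a looser filter (1 count in any library) and a stricter one (10 counts in every library), fits of only the groups compared, no block, each replicate left out, CPM on raw totals, and the length of the longest transcript. Other receptors of the family were not analysed here, and the results of 1 further pathway list are not reported here.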

Additional observations from a re-analysis of the deposited data

Results flagged for a closer look

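Gpr65 in replicate 1 at pH 7 with IL-2 stood at 77.7 CPM, farther from the other 4 libraries of its group (57.6 to 60.1 CPM) than Dixon's limit allows. Of 14 groups of values tested this was 1, and chance gives about 1 in 20. Left without replicate 1, every Gpr65 call with IL-2 was on the same side of the threshold.

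The response of each tested receptor to pH 6.6 differed between cultures with and without IL-2, by the interaction term of edgeR's fit. It was -0.64 on the log2 scale for Gpr65 (adjusted p = 4.72e-05) and 1.44 for Gpr132 (adjusted p = 1.06e-12), in 5 of 5 replicates each, among 67.0% of tested genes.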

How the results depend on the processing

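Over 11 alternatives and 15 comparisons, 159 of 165 values of Gpr65 and 164 of 165 of Gpr132 were on the side of the threshold reported. No called value changed sign. The Gpr132 interaction of pH 7 and IL-2, not called at 0.03, was -0.02 without replicate 2 and -0.03 without replicate 3. The exceptions to the side of the threshold are small steps. For Gpr65 from pH 7.4 to pH 7 without IL-2 the fit without the replicate block gave -0.35 (adjusted p = 0.189). Values with 1 replicate left out ran from -0.42 to -0.31, and the call held only without replicate 1. For Gpr65 from pH 7 to pH 6.6 without IL-2 the values ran from -0.25 to -0.12 with 1 replicate left out. For Gpr132 from pH 7.4 to pH 7 with IL-2, a fit of those 2 groups alone gave 0.21 (adjusted p = 0.021; 0.021 to 0.359 over all alternatives). The cause was not tested. Leaving out the block changed no other receptor call.

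Counts of genes past the threshold moved by over 1.5 times in 4 comparisons. For pH 7 against pH 7.4 with IL-2, 2623 became 1660 without the block, 4388 with only the groups compared, and 1374 or 1283 without replicate 2 or 3. For the same step without IL-2, 232 became 56, 942, and 35 to 154 without replicates 2 to 5. For IL-2 at pH 6.6, 3278 became 5369 with only the groups compared and 2119 without replicate 4. For the interaction at pH 7, 662 became 326 with the looser filter, 177 without the block, 1632 with only those groups, 1007 in DESeq2 and 98 to 378 without replicates 2 to 5. Gpr4, with 62 counts in all, is limited by depth.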

Other observations

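Some replicate numbers recurred as the highest or lowest library of a receptor within the groups. Gpr65 was highest in replicate 1 in 5 of the 7 groups and lowest in replicate 5 in 4 of them. Gpr132 was highest in replicate 3 in 6 of the 7 groups and lowest in replicate 1 in 4 of them. Replicate numbers name the biological replicate in the study's design, and this order was not tested.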
